A study of Rattus norvegicus with 5 samples.

Results

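The 9 genes described here encode parts of the renin-angiotensin system and peptide-cleaving enzymes of the brush border, the microvillar surface that proximal tubular cells turn toward the filtrate. They were the angiotensin precursor Agt, the converting enzyme Ace, the receptors Agtr1a and Agtr1b, and the brush border enzymes Mme, Enpep, Anpep, Ggt1 and Dpep1. A gene was taken from a probe set to which the platform annotation gives that single symbol, and each of the 9 had 1 such probe set among the 29215 measured, which name 14506 genes in all. Total RNA was taken from isolated kidney proximal tubular cells of the Sprague-Dawley strain, and every animal had type I diabetes. The C-peptide group comprised 3 arrays of cells given C-peptide, the peptide released when proinsulin is cleaved, for 2 h. The untreated group comprised 2 arrays of cells from diabetic rats kept without it. Each array of a group is labelled as its own animal. All 5 arrays were from diabetic rats, with no healthy group, and neither the C-peptide dose, the way diabetes was induced, nor the rats' age and sex is stated in the labels. The labels also do not say whether animal 1 of one group is animal 1 of the other.

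Angiotensinogen is the precursor of angiotensin I, from which Ace makes angiotensin II, the peptide that acts on the type 1 receptors. Aminopeptidase A (Enpep) and aminopeptidase N (Anpep) then shorten angiotensin II and its product from the amino end, and neprilysin (Mme) cleaves angiotensin I and natriuretic peptides. Ggt1 and Dpep1 act in sequence on glutathione in the filtrate, the first removing the gamma-glutamyl group and the second splitting the dipeptide that is left. The proximal tubule is known both for making angiotensinogen and for carrying these enzymes on its brush border.

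Intensities below are the deposited probe-set values after quantile normalisation, which gives every array the same distribution, because the deposited array medians ran from 60.1 to 95.9. The 16 measured proximal tubule markers were above the array median on all 5 arrays, and so were 11 of 12 endothelial, 11 of 12 immune and 6 of 7 thick limb and distal markers. No marker of these lists was at 0. In limma (two-sided, log2 of intensity + 16), 0 of the 29215 probe sets passed adjusted p 0.05 (Benjamini-Hochberg), that is 0%, while 3317 had an unadjusted p under 0.05 (11.4%). The same test on the values as deposited gave 52 at adjusted p 0.05 (0.178%). Of the 9 members, 0 had an unadjusted p under 0.05 as deposited, beside 7.04% of all probe sets. Since no member passed the adjusted threshold in either fit, values and unadjusted p are given, and differences are C-peptide minus untreated on the log2 scale. In RNA from a mixed preparation, fewer cells of a type and less RNA per cell cannot be told apart.

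Of the 9 genes, 4 brush border enzymes, Ggt1, Mme, Enpep and Anpep, were brighter on each of the 3 C-peptide arrays than on both untreated arrays and had an unadjusted p under 0.05, by 1.55-fold to 1.71-fold. This share of 4 of 9 stands beside 5.06% of all probe sets that were higher at unadjusted p under 0.05 and 16.1% whose C-peptide arrays all lay above the untreated ones. Agt and Agtr1a separated the groups the same way by smaller amounts. Ace, Agtr1b and Dpep1, which were dim, overlapped between the groups, Dpep1 only after normalisation. The median difference of the 9 was 0.30, beside 0.02 for all probe sets. It was 0.13 without untreated animal 1, 0.48 without untreated animal 2, and 0.06 as deposited, where all probe sets had a median of -0.13. Over members above the median intensity only, which leaves out Ace, Agtr1b and Dpep1, it was 0.67.

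**Figure D1:**
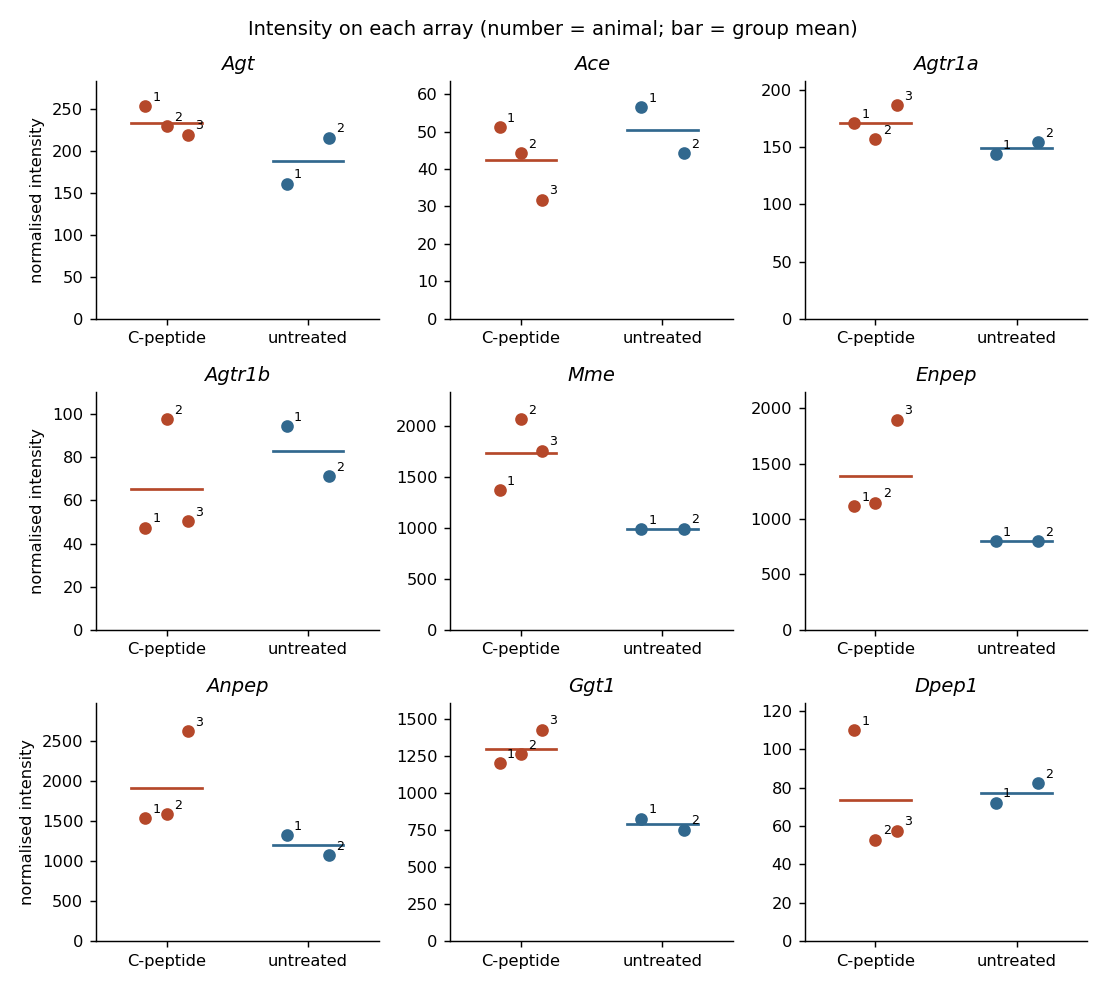
Normalised intensity (linear scale, arbitrary units, axes from 0) of the 9 genes on each array, with C-peptide arrays at the left and untreated arrays at the right of each panel; numbers are animals and bars are group means. Ggt1, Mme, Enpep and Anpep show 3 C-peptide points above both untreated points, whereas the points of Ace, Agtr1b and Dpep1 interleave.

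Ggt1, gamma-glutamyltransferase, had the smallest p among the 9. For C-peptide animals 1, 2 and 3 it measured 1203, 1263 and 1429 normalised units, against 829 and 752 for untreated animals 1 and 2. The C-peptide arrays lay close together and well above both untreated arrays, with means of 1298 ± 117 (SD, n = 3) and 790.4 ± 54.1 (SD, n = 2). The log2 difference was 0.70 ± 0.15 (SE; 95% interval 0.35 to 1.05), with adjusted p = 0.161 in limma. Ggt1 passed at adjusted p = 0.0400 where only probe sets above the median intensity were tested, at 0.0452 where only those naming 1 gene were tested and at 0.0443 on gene means. Features passing that threshold in these limma fits numbered 393, 329 of 15310 and 334 of 14506, in that order. The 393 were among the probe sets above the median intensity of all 29215. In the main fit 0 of the 29215 passed, so Ggt1 was 1 of many features that passed only in these fits. In the values as deposited Ggt1 was at 0.51 ± 0.27 with an unadjusted p above 0.05, and the groups still did not overlap, as held for 3.97% of probe sets in that direction.

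Mme, neprilysin, a zinc endopeptidase, had intensities of 1368, 2065 and 1756 on the C-peptide arrays, against 987 and 991 on the untreated arrays. The untreated arrays were nearly alike and C-peptide animal 2 was the highest. The difference was 0.78 ± 0.19 (95% interval 0.32 to 1.23; adjusted p = 0.209 in limma). As deposited, Mme was at 1081, 2218 and 1733 on the C-peptide arrays, against 1041 and 1094 on the untreated arrays. There the array of C-peptide animal 1 fell between the untreated arrays, and the difference was 0.58 ± 0.30, with an unadjusted p above 0.05. Of the deposited array medians, that of C-peptide animal 1 was the lowest.

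Enpep, which removes an acidic amino-terminal residue from angiotensin II, had intensities of 1117, 1148 and 1897 on the C-peptide arrays, against 799.2 and 799.6 on the untreated arrays. C-peptide animal 3 stood apart from the other two treated arrays, which still exceeded both untreated ones. The difference was 0.74 ± 0.24 (95% interval 0.17 to 1.31; adjusted p = 0.332 in limma), 0.50 without C-peptide animal 3, and 0.54 as deposited, where the unadjusted p was above 0.05. Without untreated animal 1 or 2 the difference was 0.75 and 0.72, and in both cases the unadjusted p was above 0.05.

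Anpep, an abundant brush border aminopeptidase that acts on neutral residues, had intensities of 1534, 1586 and 2623 on the C-peptide arrays, against 1321 and 1071 on the untreated arrays. The same animal, C-peptide animal 3, was again highest, and the gap between the lower C-peptide arrays and the higher untreated array was narrow. The difference was 0.63 ± 0.25 (95% interval 0.04 to 1.23; adjusted p = 0.417 in limma). It was 0.38 without C-peptide animal 3, 0.48 without untreated animal 2, 0.80 without untreated animal 1 and 0.45 as deposited, and in each of these 4 settings the unadjusted p was above 0.05.

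The windows from 250 bases before to 50 bases after the RefSeq start of these enzymes are shown because the 4 differed in the same direction. Capitals mark matches on either strand to GTTAAT, a half-site of the hepatocyte nuclear factor 1 (HNF1) motif, and to TATAA, the core of the TATA box. All sequences are 5′ to 3′ on the gene's strand, from RefSeq on rat assembly GRCr8, in which 8 of the 9 genes were matched, all but Agt.
Ggt1 (GRCr8, chr20:13095055-13095354, minus strand): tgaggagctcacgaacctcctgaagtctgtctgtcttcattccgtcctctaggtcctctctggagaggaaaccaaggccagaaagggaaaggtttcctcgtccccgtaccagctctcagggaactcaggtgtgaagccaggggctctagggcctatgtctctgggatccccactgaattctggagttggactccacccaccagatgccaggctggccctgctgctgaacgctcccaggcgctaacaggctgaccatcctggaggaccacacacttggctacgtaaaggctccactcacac
Mme (GRCr8, chr2:149872247-149872546, plus strand): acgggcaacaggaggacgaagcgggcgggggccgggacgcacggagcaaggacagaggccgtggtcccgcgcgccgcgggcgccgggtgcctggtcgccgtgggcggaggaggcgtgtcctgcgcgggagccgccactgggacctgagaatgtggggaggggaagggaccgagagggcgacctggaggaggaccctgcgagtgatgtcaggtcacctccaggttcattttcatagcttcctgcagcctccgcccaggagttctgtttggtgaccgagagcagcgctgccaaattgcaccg
Enpep (GRCr8, chr2:220526169-220526468, minus strand): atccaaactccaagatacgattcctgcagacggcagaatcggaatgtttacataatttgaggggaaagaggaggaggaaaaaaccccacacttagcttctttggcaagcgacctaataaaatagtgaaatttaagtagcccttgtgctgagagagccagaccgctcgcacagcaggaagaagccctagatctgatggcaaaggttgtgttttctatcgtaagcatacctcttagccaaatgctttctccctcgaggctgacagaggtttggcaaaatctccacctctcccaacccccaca
Anpep (GRCr8, chr1:143195052-143195351, minus strand): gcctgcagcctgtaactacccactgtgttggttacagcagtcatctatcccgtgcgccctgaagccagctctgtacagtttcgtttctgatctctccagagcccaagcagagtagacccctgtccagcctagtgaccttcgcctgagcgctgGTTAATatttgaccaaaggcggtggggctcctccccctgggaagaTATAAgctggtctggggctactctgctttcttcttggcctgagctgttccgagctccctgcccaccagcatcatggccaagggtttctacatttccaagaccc
GTTAAT occurred only in the Anpep window among the 8, on the plus strand with its first base 98 bases before the start, and in 7.45% of all 33469 windows. TATAA on either strand occurred in the windows of Anpep, Ace, Agtr1a and Agtr1b and in 26.2% of all windows. A further motif, GGTCA, the nuclear receptor half-site, was found in the windows of Agtr1a, Agtr1b, Mme, Anpep, Ggt1 and Dpep1, and in 40.5% of all windows. The GC content was 57.7% for Ggt1, 68.7% for Mme, 47% for Enpep and 55.7% for Anpep, against a median of 51.7% for all windows. None of the 3 motifs was in all 4 enzyme windows, and the Enpep window held none of them. Such a match describes letters in 1 annotated window, and the rat Ggt1 gene is known to be transcribed from several promoters.

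Dpep1, renal dipeptidase, lay on the other side of 0 from the enzyme that acts before it. Its intensities were 110, 52.8 and 57.6 on the C-peptide arrays, against 72.2 and 82.5 on the untreated arrays. C-peptide animal 1 was above and C-peptide animals 2 and 3 below both untreated arrays. The difference was -0.12 ± 0.27 (95% interval -0.74 to 0.51; adjusted p = 0.911 in limma), 0.047 without C-peptide animal 2 and -0.40 without C-peptide animal 1, where the unadjusted p was under 0.05. As deposited the difference was -0.30 ± 0.26, with an unadjusted p above 0.05 in limma. There Dpep1 was at 78.8, 62.25 and 54.3 on the C-peptide arrays, against 80.8 and 85.0 on the untreated arrays. All C-peptide arrays were thus lower, as held for 4890 of all 29215 probe sets. The probe set exceeded the array median on 2 of 5 arrays, and the added constant of 16 compresses its difference slightly. With a constant of 1 after normalisation it was -0.15 ± 0.35.

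Agt, the source of all angiotensin peptides, had intensities of 253, 230 and 220 on the C-peptide arrays, against 161 and 216 on the untreated arrays. All C-peptide arrays were higher, but C-peptide animal 3 exceeded untreated animal 2 only slightly. The difference was 0.30 ± 0.17 (95% interval -0.09 to 0.70; adjusted p = 0.55 in limma). It was 0.06 in the values as deposited, 0.11 without untreated animal 1 and 0.49 without untreated animal 2, where the unadjusted p was under 0.05.

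Agtr1a, the main type 1 angiotensin receptor gene of the rodent kidney, had intensities of 171, 157 and 187 on the C-peptide arrays, against 144 and 155 on the untreated arrays. The groups did not overlap, by a gap that was small against the spread of the C-peptide arrays. The difference was 0.18 ± 0.14 (95% interval -0.16 to 0.52; adjusted p = 0.694 in limma) and -0.040 as deposited. Agtr1b, the second rodent gene for this receptor, had intensities of 47.4, 97.7 and 50.2 on the C-peptide arrays, against 94.4 and 71.3 on the untreated arrays, and C-peptide animal 2 lay with the untreated arrays. Its difference was -0.33 ± 0.27 (95% interval -0.97 to 0.31; adjusted p = 0.704 in limma). It was -0.60 without C-peptide animal 2, where the unadjusted p was under 0.05, -0.49 without untreated animal 2 and -0.47 as deposited. Leaving out C-peptide animal 1 gave -0.18, C-peptide animal 3 gave -0.21 and untreated animal 1 gave -0.16, each with an unadjusted p above 0.05. The receptors are near-identical in coding sequence, so each probe set may also report the other gene.

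Ace had intensities of 51.2, 44.3 and 31.7 on the C-peptide arrays, against 56.5 and 44.3 on the untreated arrays, below the array median on all 5. The lowest value was that of C-peptide animal 3, and the groups overlapped. The difference was -0.19 ± 0.19 (95% interval -0.64 to 0.25; adjusted p = 0.753 in limma). Leaving out C-peptide animal 3 gave -0.055, and leaving out C-peptide animal 1 gave -0.31. With untreated animal 1 left out Ace was at -0.058, with untreated animal 2 left out at -0.32, and as deposited at -0.32. Ace is also an enzyme of endothelium, and 11 of the 12 endothelial markers were lower at unadjusted p under 0.05, as 6.30% of all probe sets were, with a median difference of -1.13. Their summed intensity was 8754 to 13604 on the C-peptide arrays and 20871 to 24649 on the untreated arrays. The part of endothelial RNA in the Ace value was not tested.

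**Figure D2:**
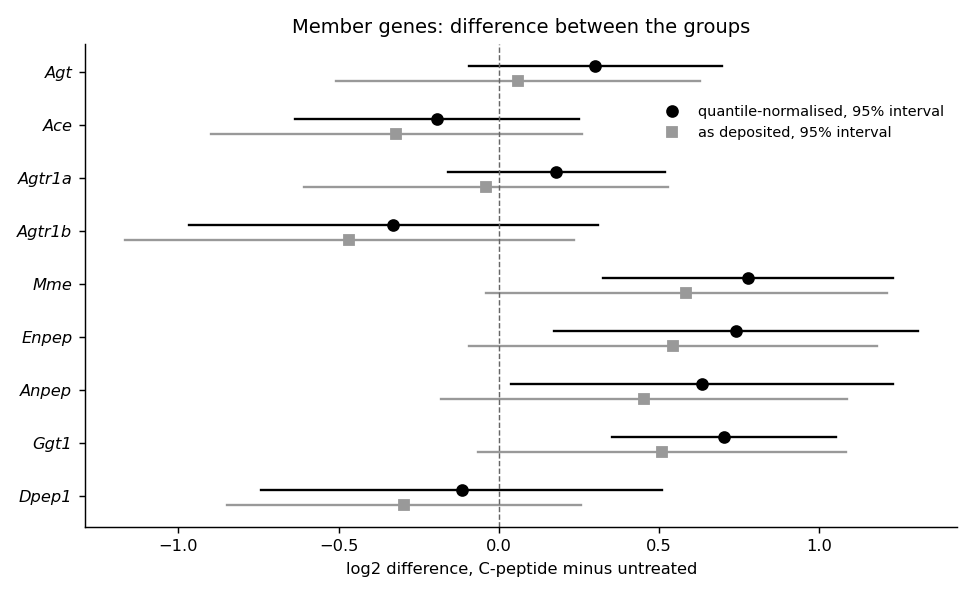
Log2 difference, C-peptide minus untreated, of the 9 genes (horizontal axis) after quantile normalisation (black) and as deposited (grey), with 95% intervals from limma. The intervals of Ggt1, Mme, Enpep and Anpep lie above 0 after normalisation and include 0 as deposited.

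Across the arrays, the 4 enzymes that lay higher shared the difference between the groups but not the order of the C-peptide arrays. Mme was highest for C-peptide animal 2, and Enpep, Anpep and Ggt1 were highest for C-peptide animal 3. After centring each gene on its mean over the 5 arrays, the mean absolute distance between profiles was 0.09 to 0.25 on the log2 scale over the 6 pairs of Ggt1, Mme, Enpep and Anpep, and 0.15 to 0.65 over the other 30 pairs of the 9 genes. The ranges overlapped, since Agt and Agtr1a, at 0.15, were closer to each other than Mme and Anpep, at 0.25. These distances describe genes chosen here for their difference, and the arrays are the same in every pair. Enpep and Anpep were the closest pair, at 0.09. Of 8564 genes brighter than the median probe set, Tfrc, the transferrin receptor, Tmem51 and Slc22a25 were nearest to Enpep (distances 0.07). Slc9a3, the sodium-proton exchanger of the brush border, Tmem51 and Enpep itself were nearest to Anpep, at 0.07 to 0.09. Fmo2, a flavin monooxygenase, Ces1d, a carboxylesterase, and Zdhhc13, a palmitoyltransferase, were nearest to Mme, at 0.07 to 0.09. The other 6 genes had a range under 1 on the log2 scale over the arrays, and neighbours are not named for them.

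The markers of the proximal tubule differed between the groups in the same direction as these enzymes. Within the C-peptide group the order of the arrays was not the same for all. The centred marker mean was 0.25, -0.007 and 0.43 for C-peptide animals 1, 2 and 3, lowest for animal 2. Mme, at -0.004, 0.58 and 0.35, was highest for that animal. All 16 markers had a difference above 0, with a median of 0.56 and a range of 0.30 to 0.97, and 10 had an unadjusted p under 0.05, beside 5.06% of all probe sets. Their summed intensity was 30825 to 40580 on the C-peptide arrays and 22615 to 26497 on the untreated arrays. The differences of Ggt1, Mme, Enpep and Anpep, 0.63 to 0.78, fell within the markers' range. Measured relative to the mean of the 16 markers on the same array, a scale chosen after the data were seen, Ggt1 was at -0.56 ± 0.17 (SD, n = 3) on the C-peptide arrays and -0.70 ± 0.05 (SD, n = 2) on the untreated arrays. The difference on that scale was 0.14 for Ggt1, 0.22 for Mme, 0.18 for Enpep and 0.08 for Anpep, and the groups overlapped in all 4. On the same scale Ace was at -0.75, Agtr1b at -0.89, Dpep1 at -0.67, Agtr1a at -0.38 and Agt at -0.26. There the C-peptide arrays of Ace, Agtr1a and Agtr1b all lay below the untreated arrays. The scale lowers the difference of every probe set by the same amount, so the reversed direction of Agtr1a follows from the reference chosen. Before that shift Agtr1a was at 0.18, beside a median of 0.02 for all probe sets. The share of all probe sets whose C-peptide arrays lay below on that scale was not counted. The separation of Ace, Agtr1a and Agtr1b there is therefore not read as particular to these genes. The part of a shift in cell makeup in these values was not tested.

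**Figure D3:**
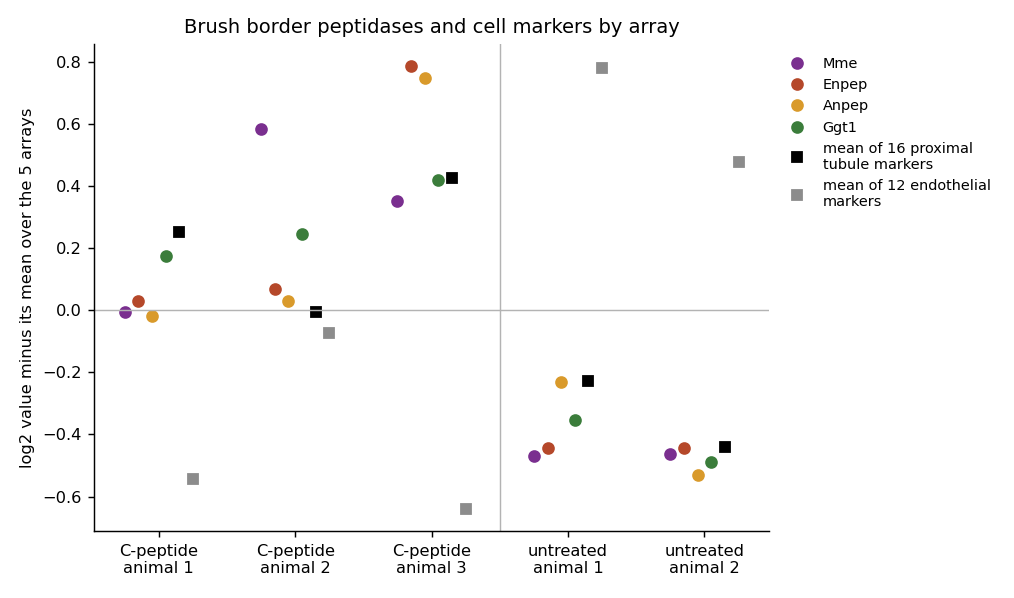
Log2 value minus its mean over the 5 arrays (vertical axis) for Mme, Enpep, Anpep and Ggt1 (circles) and for the mean of the 16 proximal tubule and 12 endothelial markers (squares), by array. The enzymes and the proximal tubule markers lie below 0 on both untreated arrays, where the endothelial markers lie above 0.

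Other enzymes and partners of the brush border lay on the same side. Of 18 measured, 16 had a difference above 0, 8 were higher at unadjusted p under 0.05 and none was lower, beside 5.06% higher and 6.30% lower of all probe sets. Their median was 0.44, and 0.24 as deposited, on arrays where the proximal tubule markers had a median of 0.56. None passed adjusted p 0.05 in limma. Enpp3, named after its value was seen, went the other way, at 396, 467 and 458 on the C-peptide arrays, against 507 and 536 on the untreated arrays. Its difference was -0.24 ± 0.15 (adjusted p = 0.589 in limma) and -0.46 as deposited. All its C-peptide arrays lay below the untreated ones, as held for 13.8% of all probe sets. Slc15a2, which takes up di- and tripeptides that the peptidases release, had intensities of 427, 370 and 433 on the C-peptide arrays, against 215 and 234 on the untreated arrays. Its groups were far apart, with a difference of 0.82 ± 0.15 (adjusted p = 0.128 in limma) and an unadjusted p under 0.05 as deposited as well. Mep1b, a meprin metalloprotease subunit, was at 154, 131 and 174 on the C-peptide arrays, against 94.4 and 90.1 on the untreated arrays, a difference of 0.64 ± 0.16 (adjusted p = 0.209 in limma).

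The remaining 6 of the 8 were smaller in difference than Mep1b and did not overlap between the groups, as held for 16.1% of all probe sets with C-peptide above. Nt5e, the ecto-nucleotidase that makes adenosine, was at 0.58 ± 0.20, and Acy3, which deacetylates mercapturic acids, at 0.57 ± 0.18. Alpl, alkaline phosphatase, was at 0.48 ± 0.17, Cdhr5, a protocadherin of microvilli, at 0.48 ± 0.15, Pdzk1, a scaffold of brush border transporters, at 0.47 ± 0.18 and Xpnpep2, membrane aminopeptidase P, at 0.41 ± 0.17. As deposited, Slc15a2 was the 1 gene of the 18 with an unadjusted p under 0.05, where 0.661% of all probe sets were higher by that rule.

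Genes that act with Ggt1 and Dpep1 in glutathione breakdown were divided. Of 9 measured, 3 were higher and 1 lower at unadjusted p under 0.05, beside 5.06% and 6.30% of all probe sets. The median was -0.03, but between 0.0075 and 0.22 whenever 1 array was left out, and -0.13 as deposited. Over those of the 9 above the median intensity only, it was 0.52. Oplah, which opens oxoproline, had intensities of 417, 304 and 390 on the C-peptide arrays, against 250 and 206 on the untreated arrays, a difference of 0.66 ± 0.18 (adjusted p = 0.252 in limma). Ggct, which makes oxoproline from gamma-glutamyl amino acids, was at 0.55 ± 0.15 (adjusted p = 0.242), and Lap3, an aminopeptidase that can also split cysteinylglycine, at 0.52 ± 0.15 (adjusted p = 0.276 in limma). The groups did not overlap in these 3 genes, beside 16.1% of all probe sets with C-peptide above. Dpep3, a dipeptidase related to Dpep1, was at -0.62 ± 0.26 (adjusted p = 0.421 in limma), at intensities of 13.1, 11.03 and 14.6 on the C-peptide arrays and 44.7 and 16.6 on the untreated arrays. The probe set is very dim, and untreated animal 1 alone was far above the rest.

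The rest of the renin-angiotensin system showed no common direction. Of 15 measured genes, 8 were above 0 and 7 below, with a median of 0.04 (-0.050 without untreated animal 1 and -0.13 as deposited), and 1 was higher and 1 lower at unadjusted p under 0.05, beside 11.4% of all probe sets in either direction. Atp6ap2, an accessory subunit of the vacuolar proton pump, had intensities of 1336, 1660 and 1478 on the C-peptide arrays, against 1143 and 1086 on the untreated arrays, with a difference of 0.41 ± 0.15 (adjusted p = 0.386 in limma). Prcp, a carboxypeptidase that cleaves angiotensin II at its carboxyl end, was at 190, 211 and 143 on the C-peptide arrays, against 275 and 236 on the untreated arrays, with a difference of -0.47 ± 0.19 (adjusted p = 0.417 in limma). Neither gene overlapped between the groups, as held for 16.1% of all probe sets with C-peptide above and 13.8% with C-peptide below. Nln, neurolysin, a peptidase that can cleave angiotensin I, was at 0.38 ± 0.18 (adjusted p = 0.487 in limma).

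Mrgprd, a receptor for an angiotensin-derived peptide, was at -0.91 ± 0.52 (adjusted p = 0.563 in limma), with 37.2, 197 and 140 on the C-peptide arrays, against 191 and 233 on the untreated arrays. The arrays of its C-peptide group spanned more than the gap between the group means. Agtr2, the type 2 receptor, was at 0.12 ± 0.16 (adjusted p = 0.823 in limma) with intensities of 38.6 to 57.9.

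The kallikrein-kinin system makes and degrades bradykinin, a substrate of both Ace and Mme. Of its 8 measured genes, 7 were above 0, and 0 had an unadjusted p under 0.05 in limma. The median was 0.20, with 0.33 when C-peptide animal 1 was left out, 0.11 when untreated animal 2 was, and -0.0084 as deposited. Klk1, tissue kallikrein, had intensities of 595, 1011 and 1057 on the C-peptide arrays, against 575 and 579 on the untreated arrays, with a difference of 0.56 ± 0.25 (adjusted p = 0.458 in limma). C-peptide animal 1 was near the untreated arrays in Klk1. Klk1 is known as a product of the distal nephron, and the 7 thick limb and distal markers, with a summed intensity of 8368 to 14580 on the C-peptide arrays and 9840 to 10970 on the untreated arrays, had their lowest sum on the array of C-peptide animal 1. Their part in the Klk1 value was not tested. Kng1, kininogen, was at 0.52 ± 0.23 (adjusted p = 0.447 in limma) by its brightest probe set and at 0.39 ± 0.39 by another. Kng2 and Klkb1 were at 0.24 ± 0.17 and 0.26 ± 0.19.

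Markers of the other cells in which members are also expressed differed as follows. Mme and Enpep are known from podocytes, Enpep also from pericytes, and the type 1 receptors from mesangial and smooth muscle cells. The 6 podocyte markers had a median difference of -0.50, with 3 lower at unadjusted p under 0.05, beside 6.30% of all probe sets, and a summed intensity of 1536 to 2532 on the C-peptide arrays and 3889 to 4723 on the untreated arrays. Most of that sum came from Podxl (-1.32 ± 0.26) and Clic5 (-1.21 ± 0.25), whereas Wt1 was at -0.17 ± 0.24 and Nphs1, nephrin, at 0.11 ± 0.14, all 4 named after their values were seen. The podocyte median was -0.32 without untreated animal 1. The 11 mesangial, stromal and smooth muscle markers had a median of -0.16 (-0.081 without C-peptide animal 1 and -0.33 as deposited), with 1 lower at unadjusted p under 0.05, Des (desmin, -0.55 ± 0.15, named after its value was seen), and a summed intensity of 5273 to 5884 on the C-peptide arrays and 5800 to 6288 on the untreated arrays. Whether any of these cells contributed to the Mme, Enpep or receptor values was not tested. Immune markers had a median of -0.48, with 11 of 12 below 0 and 7 lower at unadjusted p under 0.05. The 7 markers of the thick limb and distal tubule centred on 0.13, with 1 higher, and the 8 of the collecting duct on 0.22, with 0 at unadjusted p under 0.05 in limma and 0 at adjusted p 0.05. These medians were unsteady, since the thick limb and distal one was 0.0038 when C-peptide animal 2 was left out, 0.018 when animal 3 of that group was, 0.41 when its animal 1 was, and -0.054 as deposited. The collecting duct one was 0.093 when untreated animal 2 was left out, 0.15 when C-peptide animal 3 was, and 0.0059 as deposited.

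**Figure D4:**
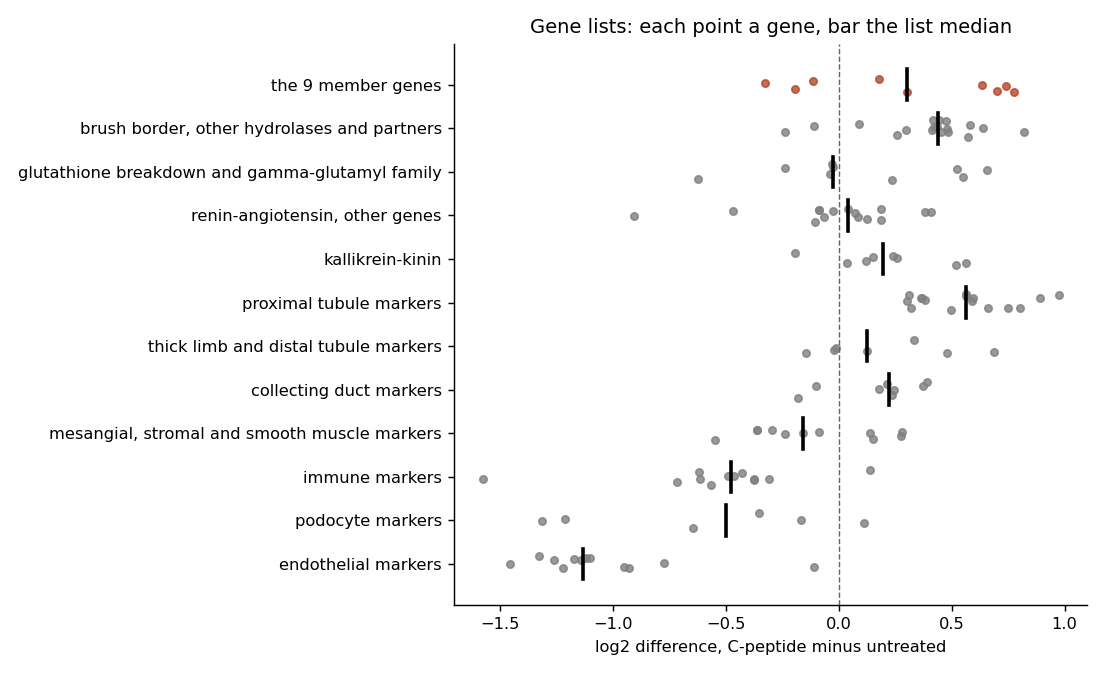
Log2 difference, C-peptide minus untreated, after quantile normalisation (horizontal axis), with each point a gene and each black bar the median of a list. The 9 member genes (red) fall into 4 points between 0.63 and 0.78 and 5 points between -0.33 and 0.30, beside medians of 0.44 for other brush border genes and -1.13 for endothelial markers.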

How the data were processed

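Probe-set intensities on a linear scale were deposited by the authors for 5 arrays, made with Affymetrix Expression Console 1.1 and PLIER, per the submitters' processing notes; background correction, scaling and filters: not given in the sources used here. Total RNA was amplified and labelled as sense-strand target, per the labels' protocols. Of the probe sets, 15310 have 1 gene symbol in the platform annotation, 323 several and 13582 none.

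Intensities were quantile-normalised and taken to log2(intensity + 16), since the deposited medians differed between arrays, and limma 3.58.1 (R 4.3.3; lmFit, then eBayes) tested C-peptide against untreated arrays over all probe sets, two-sided, in a model without covariates. Other genes were represented by their brightest probe set. The scripts were tested on simulated data. The members and lists were chosen with earlier results of these data known. From each of the 4 further pathway and brush border lists, all genes past unadjusted p 0.05 were named, or the 4 with the smallest p where fewer than 4 passed, with Agtr2 always; marker lists are given by counts, and some genes of the rule are not reported here. Members whose log2 values ranged over at least 1 have their 3 nearest genes named. The number of arrays limits the precision. Alternatives were deposited and median-centred values, other pseudocounts, filters, variance priors, array weights, gene means, the animal number as a block and leaving out each array.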

Additional observations from a re-analysis of the deposited data

How the results depend on the processing

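None of the 9 genes passed adjusted p 0.05 in the values as deposited, after centring arrays on their median, at either other pseudocount, with a trended prior, with array weights, with the block or without any 1 array. One passed, Ggt1, over probe sets above the median intensity, over 1-symbol probe sets and on gene means (1 each, at the same difference of 0.70). There fewer features were tested and the variance prior was refitted to them. The unadjusted p of Ggt1 in limma was 0.00085 above the median intensity, against 0.0019 in the main fit. Ggt1, Mme, Enpep and Anpep stayed above 0 under every alternative run. The count of members at unadjusted p under 0.05 was 0 as deposited, both in either direction and higher, and 2 to 5 (higher, 2 to 4) when each array was left out, lowest without untreated animal 1; a lone untreated array is then assumed to vary like the others. Agtr1a changed sign as deposited (-0.040) and Dpep1 without C-peptide animal 2 (0.047, with a range of -0.40 to 0.047 when each array was left out). As deposited all probe sets had a median of -0.13, and Agtr1a was at 0.13 with arrays centred on their median. The cause of these sign changes was not tested. Agtr1a (-0.38) and Agt (-0.26) also fell below 0 relative to the proximal tubule markers, a scale that lowers every difference by the same amount. Over all probe sets, adjusted p 0.05 was passed by 52 as deposited, 29 after centring, 1 at a pseudocount of 1, 118 at a pseudocount of 64, 207 with the trended prior, 393 above the median intensity, 329 over 1-symbol probe sets and 334 on gene means, and by 0 without any 1 array. At unadjusted p under 0.05 there were 2058 as deposited and 1765 to 3483 when each array was left out. With the animal number as a replicate block, 3 members and 2668 of 29215 probe sets were at unadjusted p under 0.05 in limma. Anpep, at 0.39, was not among these members. No untreated array is numbered 3, so the block fit takes its differences from animals 1 and 2 only. Leaving out C-peptide animal 3 accordingly gave Anpep at 0.38, with 2658 probe sets at unadjusted p under 0.05. Deviations of same-numbered arrays correlated at -0.025 and 0.0082, and the labels do not say that numbers pair the arrays.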
